A study of Mus musculus with 8 samples.

Results

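The 10 genes described here encode the 5 subunits of the transcription factor NF-kB (Nfkb1, Nfkb2, Rel, Rela and Relb) and 5 of its inhibitors (Nfkbia, Nfkbib, Nfkbid, Nfkbie and Tnfaip3). They were taken by gene symbol from the 19330 genes of the deposited table. All 10 were found once and all 10 passed the filter on low counts, which left 16434 genes for testing. RNA-seq had been done on T cells from the spleen of B6 mice, in which naive CD4+ cells were driven toward the regulatory T cell (Treg) fate for 3 days in vitro. The control group (n = 4 libraries) received no oxPAPC, and the oxPAPC group (n = 4 libraries) was polarized in the presence of oxPAPC, a mixture of oxidized phospholipids. The dose is not stated in the labels. Nor do they state that replicates of a group came from different mice or cultures. The p-values therefore reflect the spread of these libraries, which may be technical.

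NF-kB acts as dimers of its subunits. In resting cells the dimers are held in the cytoplasm by IkB proteins, and signals from antigen, costimulatory and cytokine receptors activate the IKK kinases, which mark the IkB proteins for degradation and free the dimers to enter the nucleus. Several IkB genes and the ubiquitin-editing enzyme A20 (Tnfaip3) are themselves NF-kB targets and so close feedback loops. In Tregs the subunit c-Rel (Rel) and the nuclear IkB protein IkBNS (Nfkbid) are known to take part in the induction of Foxp3.

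The library totals ran from 14017583 to 21619731 counts. Markers of the labelled cell type were present, with Foxp3 at 154 CPM (counts scaled to a common library total with TMM factors) in control and 145 CPM in oxPAPC libraries and Cd3e at 136 and 112 CPM. The 4 T cell markers summed to 1200 to 1440 CPM in control and 1090 to 1190 CPM in oxPAPC libraries, lower without overlap, though none passed the test. None of the 6 Treg markers passed either. Their sums were 1280 to 1610 and 1400 to 2010 CPM, with Il2ra at 538 and 823 CPM and Tnfrsf18 at 268 and 345 CPM. Summed markers of other cells were low but higher in oxPAPC libraries. The 6 B cell markers summed to 9.97 to 14.7 CPM in control and 16.2 to 19.6 CPM in oxPAPC libraries and 4 of the 6 passed the test upward. Neither Cd79a (4.01 and 4.24 CPM) nor Cd79b, which was lower (5.43 and 3.66 CPM), passed. The 4 macrophage markers in the table, of 5 listed, summed to 1.89 to 2.16 and 6.3 to 8.24 CPM, with Mpeg1 higher (0.202 and 4.03 CPM). The 5 dendritic cell markers summed to 14.6 to 18.7 and 19.1 to 28.7 CPM, with Flt3 higher (0.184 and 1.06 CPM). Of the others H2-Ab1 had 6.73 and 11.2 CPM and Zbtb46 8.66 and 11.5 CPM. For CD8 T cells the 2 markers summed to 6.69 to 8.91 and 10.8 to 19 CPM, with 1 higher. For natural killer cells 2 of 4 markers were in the table, with 0.6 to 1.81 and 2.82 to 4.13 CPM and 1 higher. The defining markers Lyz2 and Itgax were below 1 CPM in both groups, Ncr1 was not in the table, and Cd8a rose from 2.17 to 6.83 CPM, with Cd8b1 at 5.94 and 6.35 CPM. The part of these cells in the values below was not tested. In bulk RNA, fewer cells of a type and less RNA per cell cannot be told apart.

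Because several of these genes are known NF-kB targets, the bases upstream of their transcription starts were searched for the kappaB consensus, the 10-letter site that NF-kB dimers bind, on both strands. RefSeq promoter entries (build GRCm38.p6) existed for 8 of the 10 genes, with 13 start sites in all, and the 250 bases before each start were read. At least 1 match was found upstream of 6 of these 8 genes, Nfkb2, Rel, Nfkbia, Nfkbid, Nfkbie and Tnfaip3, whereas 8.23% of 27025 genes with an entry held one in windows of the same length. Counted over start sites, 8 of 13 held a match, against 7.25% of 32851. The windows of Nfkbib and Rela held none. A looser pattern, GGG followed by any 5 bases and CC, which includes every consensus match and also overlaps GC boxes (GGGCGG), was present for 7 of the 8 genes and for 48.65% of all genes. For each of the 6 genes 1 stretch that carries matches follows, with the consensus in capitals, each read 5′ to 3′ on the strand of the gene, and positions counted back from the RefSeq start.
Nfkbia: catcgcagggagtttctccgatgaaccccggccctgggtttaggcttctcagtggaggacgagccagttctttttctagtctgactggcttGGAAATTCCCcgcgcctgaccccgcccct
Nfkbie: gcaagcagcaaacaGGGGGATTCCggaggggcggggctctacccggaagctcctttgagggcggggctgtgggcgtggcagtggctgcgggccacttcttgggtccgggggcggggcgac
Nfkbid: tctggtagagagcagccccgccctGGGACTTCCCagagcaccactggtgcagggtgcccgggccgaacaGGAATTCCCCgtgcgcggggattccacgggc
Rel: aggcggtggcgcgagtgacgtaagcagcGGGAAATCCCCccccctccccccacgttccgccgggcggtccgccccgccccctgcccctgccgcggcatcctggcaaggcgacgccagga
Tnfaip3: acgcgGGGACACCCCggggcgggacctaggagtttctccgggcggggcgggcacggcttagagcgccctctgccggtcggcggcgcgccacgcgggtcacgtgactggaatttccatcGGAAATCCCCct
Nfkb2: cacGGGAATTCCCCccctcggggggccgaa
The Nfkbia stretch (chr12:55492648-55492767, minus strand) covers the 120 bases before the start and holds 1 match at bases -29 to -20. The Nfkbie stretch (chr17:45555580-45555699, plus strand) also covers 120 bases, with 1 match at -106 to -97. The Nfkbid stretch (chr7:30422156-30422255, plus strand) holds 2 matches before an internal start of the gene, and its 100 bases lie between exons. The Rel stretch (chr11:23770971-23771089, minus strand) holds 2 matches that overlap by all but 1 base. The Tnfaip3 stretch (chr10:19015411-19015540, minus strand) holds 2 matches. It lies inside the GENCODE span of the gene but outside its exons. The Nfkb2 stretch (chr19:46304695-46304724, plus strand) is 30 bases long with 2 overlapping matches, and lies in an exon of a longer GENCODE transcript. The windows before the 3 starts of Nfkb2 hold 5 matches in all, so 3 are not shown. A match is a string of letters and not a measured binding site, and no binding data were used here.

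Transcripts of 2 inhibitors, Nfkbib and Nfkbie, were higher with oxPAPC, while none of the 5 subunits passed the edgeR test. The subunit Nfkb2 had a log2 fold change (0.65) close to that of Nfkbie (0.62). With the quasi-likelihood test of edgeR and p-values adjusted over all 16434 genes (Benjamini-Hochberg), 2 of the 10 genes were higher at an adjusted p under 0.05 and none was lower. Over all tested genes 6.75% were called higher (1110) and 6.52% lower (1072), a split that library size scaling turned to 1154 higher and 458 lower. At an unadjusted p under 0.05, 4 of the 10 were higher (Nfkbib, Nfkbie, Nfkb2 and Nfkbid) and 0 lower, against 13.6% and 13.9% of all tested genes. DESeq2 called 3 higher (Nfkbib, Nfkbie and the subunit Nfkb2) and 0 lower by adjusted p, where it called 8.96% of all genes higher. The log2 fold change was above 0 for 9 of the 10 genes, against 48.7% of all tested genes. Its median over the 10 was 0.27, against -0.01 over all genes. For 3 of the 10 genes (Nfkbia, Nfkbib and Nfkbie) every oxPAPC library lay above every control library, which held for 9.5% of all tested genes. For 0 of the 10 did every oxPAPC library lie below every control library, which held for 9.86%. The 10 genes share libraries and, vary together between replicates, so they are not independent observations.

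**Figure D1:**
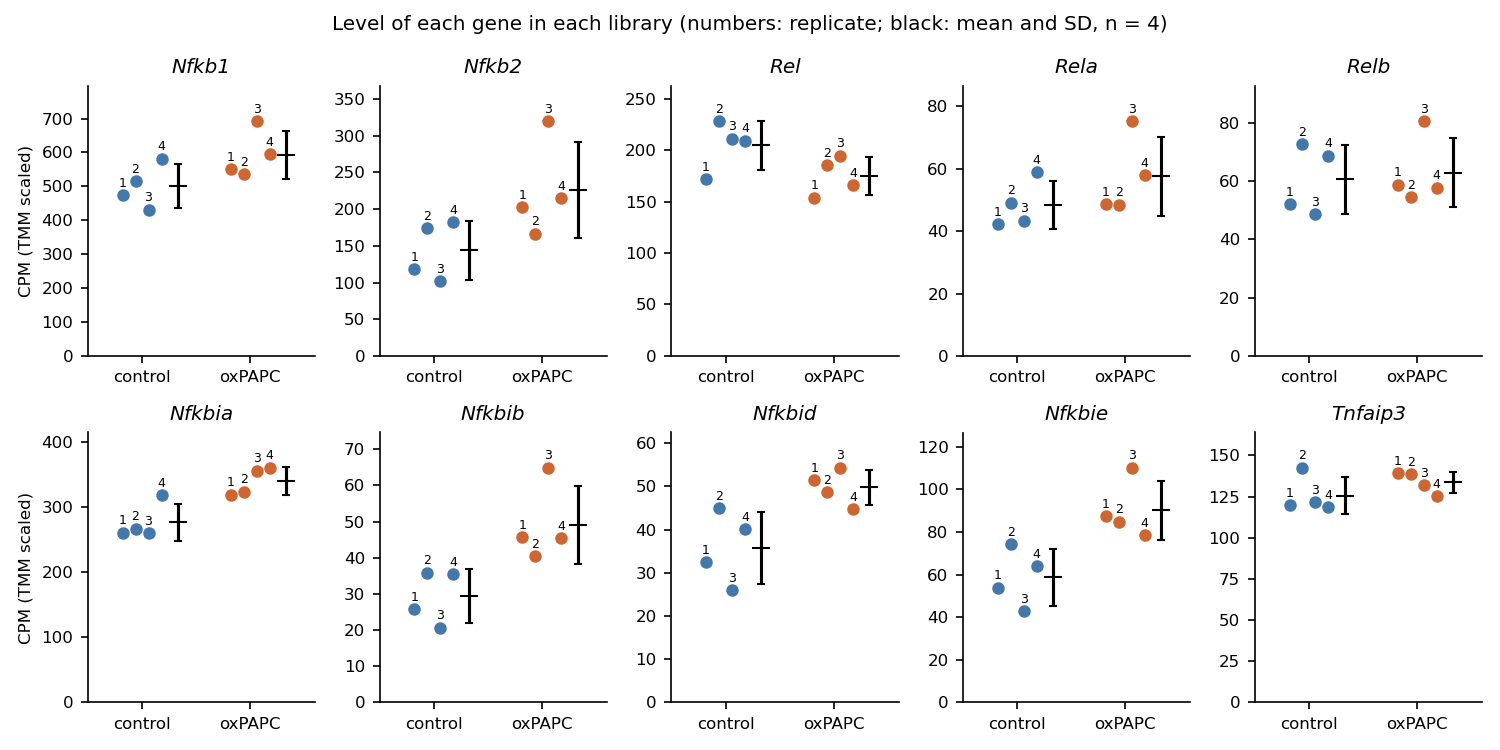
Level of each of the 10 genes in CPM after TMM scaling (vertical axes, from 0) in the 4 control (blue) and 4 oxPAPC (orange) libraries, numbered by replicate, with the group mean and SD in black. In the panels of Nfkbia, Nfkbib and Nfkbie all 4 oxPAPC points lie above all 4 control points, and oxPAPC replicate 3 is the highest oxPAPC point for 8 of the 10 genes.

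Nfkbib encodes IkB beta, which holds NF-kB dimers in the cytoplasm, and its gene spans positions 28758251 to 28767512 of chromosome 7 (GRCm38, minus strand). It had 25.8, 35.8, 20.7 and 35.4 CPM in control replicates 1 to 4 and 45.6, 40.5, 64.9 and 45.4 CPM in oxPAPC replicates 1 to 4. All oxPAPC libraries were above all controls, and oxPAPC replicate 3 stood highest. The mean rose from 29.4 ± 7.45 to 49.1 ± 10.8 CPM (SD, n = 4 each), or 0.74 ± 0.20 (SE) as log2 fold change, with an adjusted p of 0.0228 by edgeR. The call was lost without oxPAPC replicate 3 (0.58, adjusted p = 0.055) and without control replicate 1 (0.68, adjusted p = 0.0737). It was also lost with the replicate number as a block (0.75, edgeR adjusted p = 0.0849). The gene spans given here are from GENCODE. In the GENCODE annotation 314 bases of its exons are shared with Ccer2 and 42 with Sirt2, both on the opposite strand. The sources used here do not say whether counting used strand, so reads in these bases cannot be assigned.

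Nfkbie encodes IkB epsilon, another cytoplasmic inhibitor, and its gene spans positions 45555703 to 45563169 of chromosome 17 (plus strand). Control replicates 1 to 4 had 53.8, 74.2, 43.0 and 64.0 CPM, and oxPAPC replicates 1 to 4 had 87.3, 84.8, 110.1 and 78.6 CPM. The groups did not overlap. The mean rose from 58.7 ± 13.4 to 90.2 ± 13.8 CPM (SD, n = 4 each), or 0.62 ± 0.18 (SE) as log2 fold change, with an adjusted p of 0.0324 by edgeR. This call was lost without control replicate 1 (0.58, adjusted p = 0.0948), control replicate 3 (0.49, 0.0656), control replicate 4 (0.66, 0.0512), oxPAPC replicate 1 (0.64, 0.0646) or oxPAPC replicate 3 (0.51, 0.0691). With the replicate number as a block it was lost too (0.63, edgeR adjusted p = 0.0898).

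Nfkbia (chr12:55489410-55492647, minus strand) encodes IkB alpha, the best known feedback inhibitor of NF-kB. Its control libraries had 260.1, 266, 259.8 and 318.3 CPM and its oxPAPC libraries 318.8, 323, 355 and 359.9 CPM, in replicate order. Control replicate 4 almost reached the lowest oxPAPC library, but the groups did not overlap. The means were 276 ± 28.2 and 339 ± 21.3 CPM (SD, n = 4 each). The difference of 0.30 ± 0.15 (SE) on the log2 scale did not pass (edgeR adjusted p = 0.224). Per kilobase of exon Nfkbia was the most abundant of the 10 genes in every library, at 161.4 to 197.7 CPM per kb in control and 198 to 223.6 CPM per kb in oxPAPC libraries.

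Nfkbid (chr7:30421732-30428746, plus strand) encodes IkBNS, a nuclear IkB protein that modulates transcription at NF-kB sites. Its levels were 32.4, 44.9, 26.0 and 40.02 CPM in control and 51.4, 48.7, 54.3 and 44.8 CPM in oxPAPC libraries. Only oxPAPC replicate 4 fell within the control range, just under control replicate 2. The difference of 0.48 ± 0.17 (SE, log2) missed the threshold (edgeR adjusted p = 0.0721). It passed without control replicate 2 (0.60, adjusted p = 0.0431), with the share of the noncoding RNA Gm26917 as a covariate (0.62, adjusted p = 0.0201) and when genes under a mean of 5 CPM were removed (adjusted p = 0.0474). Tnfaip3 (chr10:19000910-19015657, minus strand) encodes A20, which removes and edits ubiquitin chains upstream of IKK. It ranged from 118.5 to 142.5 CPM in control and from 125.2 to 139 CPM in oxPAPC libraries, so the oxPAPC libraries lay inside the control range. The log2 difference was 0.09 ± 0.13 (SE, edgeR adjusted p = 0.718).

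Of the subunits, Nfkb2 had the largest log2 fold change. The gene (chr19:46304320-46312385, plus strand) encodes a precursor that is processed to the DNA-binding partner of RelB in the alternative NF-kB pathway. Control libraries had 118.4, 174.2, 101.4 and 181.9 CPM and oxPAPC libraries 202.5, 166.5, 319.7 and 215.2 CPM in replicate order. Replicate 2 of the oxPAPC group lay inside the control range and replicate 3 well above all other libraries. The means were 144 ± 40.1 and 226 ± 65.8 CPM (SD, n = 4 each), a log2 difference of 0.65 ± 0.23 (SE) that missed the threshold by edgeR (adjusted p = 0.0784) and passed with DESeq2 (0.67, adjusted p = 0.0405) and in the authors' deposited table (0.68, adjusted p = 0.0463). Without oxPAPC replicate 3 it was 0.44 (edgeR adjusted p = 0.188). Its exons share 531 bases with the noncoding gene AC114539.1 and 299 bases with Psd on the opposite strand.

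Rel (chr11:23736847-23770970, minus strand) encodes c-Rel, the subunit most tied to Treg development. It was the only member with a lower mean in oxPAPC libraries, with 171.7, 228.2, 211.1 and 209.2 CPM in control and 154, 185.5, 194.7 and 165.8 CPM in oxPAPC libraries. The groups overlapped through control replicate 1. At -0.23 ± 0.15 (SE, log2) the difference did not pass (edgeR adjusted p = 0.364). Nfkb1 (chr3:135584655-135691547, minus strand), which encodes the precursor of the partner of RelA, had 431.4 to 581.4 CPM in control and 536.1 to 692.2 CPM in oxPAPC libraries, a log2 difference of 0.24 ± 0.17 (SE) that did not pass (edgeR adjusted p = 0.398). Rela (chr19:5637483-5648130, plus strand) encodes the main activating subunit of the classical pathway and had 42.2 to 59.0 and 48.5 to 75.2 CPM (log2 difference 0.25 ± 0.17, SE, edgeR adjusted p = 0.373). Relb (chr7:19606217-19629438, minus strand), the activating subunit of the alternative pathway, had 48.7 to 72.7 and 54.5 to 80.6 CPM. Its log2 difference of 0.06 ± 0.17 (SE, edgeR adjusted p = 0.874) turned to -0.05 with limma-voom quality weights, to -0.09 without oxPAPC replicate 3, and to -0.04 and -0.01 without control replicates 3 and 1.

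**Figure D2:**
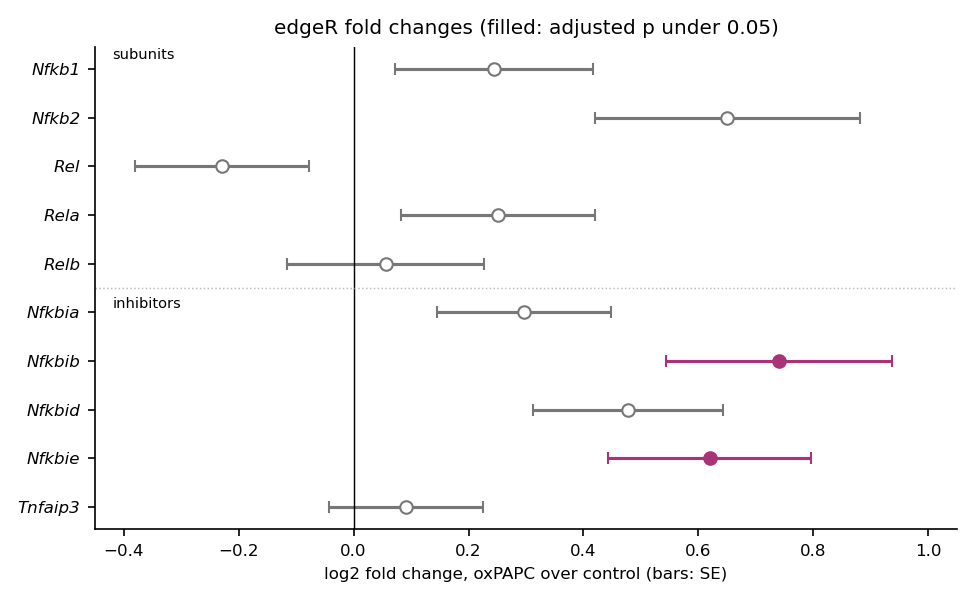
Log2 fold change of each gene, oxPAPC over control (horizontal axis), with its standard error from edgeR; filled points have an adjusted p under 0.05. Only Nfkbib (0.74) and Nfkbie (0.62) are filled, and Rel (-0.23) is the only gene left of 0.

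Levels of different genes can be compared only per length, so CPM were divided by the length of each gene's merged exons. Merged exons join all annotated transcripts and came to 12.06 kb for Nfkb1 and 4.584 kb for Nfkb2. Where the transcripts made in these cells are shorter, the level is understated, so the order of genes depends on this length. Which transcripts were made was not tested. In control libraries Nfkb1 stood highest among the subunits at 41.5 ± 5.30 CPM per kb, followed by Nfkb2 at 31.4 ± 8.74, Rel at 27.5 ± 3.19, Rela at 15.8 ± 2.49 and Relb at 15.6 ± 3.06 CPM per kb (SD, n = 4). Nfkb1 and Nfkb2 overlapped in range, as did Nfkb2 and Rel and also Rela and Relb. In oxPAPC libraries Nfkb2 at 49.3 ± 14.4 and Nfkb1 at 49.2 ± 5.83 CPM per kb had nearly the same mean by this measure. Before division by length the means were 226 CPM for Nfkb2 and 593.4 CPM for Nfkb1. Rel stood at 23.4 ± 2.48, Rela at 18.7 ± 4.09 and Relb at 16.2 ± 3.07 CPM per kb (SD, n = 4). Among the inhibitors Nfkbia came first, and in control libraries the other 4 lay between 13.6 CPM per kb for Nfkbib and 19.3 CPM per kb for Nfkbie, with overlapping ranges.

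The makeup of the subunit transcripts was described as the share of each in the sum of the 5 per-length levels. This quantity does not depend on library scaling, but it does depend on the merged exon lengths used. Nfkb2 made up 19.6% to 26% in control and 26.8% to 35.1% in oxPAPC libraries, with no overlap. Rel made up 18.3% to 25.1% in control and 13.1% to 18.3% in oxPAPC libraries, so the ranges touched at their ends. Relb went from 11.8 ± 0.719% to 10.3 ± 0.385%, without overlap, while Nfkb1 (31.7 ± 1.96% and 31.6 ± 1.8%) and Rela (12 ± 0.752% and 11.9 ± 0.575%, SD, n = 4 each) had nearly the same mean in both groups. The log2 ratio of Nfkb2 to Rel counts was -1.06 to -0.20 in control and -0.16 to 0.72 in oxPAPC libraries. The log2 ratio of Nfkb1 to Rel was 1.03 to 1.47 in control and 1.53 to 1.84 in oxPAPC libraries. These ratios were chosen after the values were seen and are a description.

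**Figure D3:**
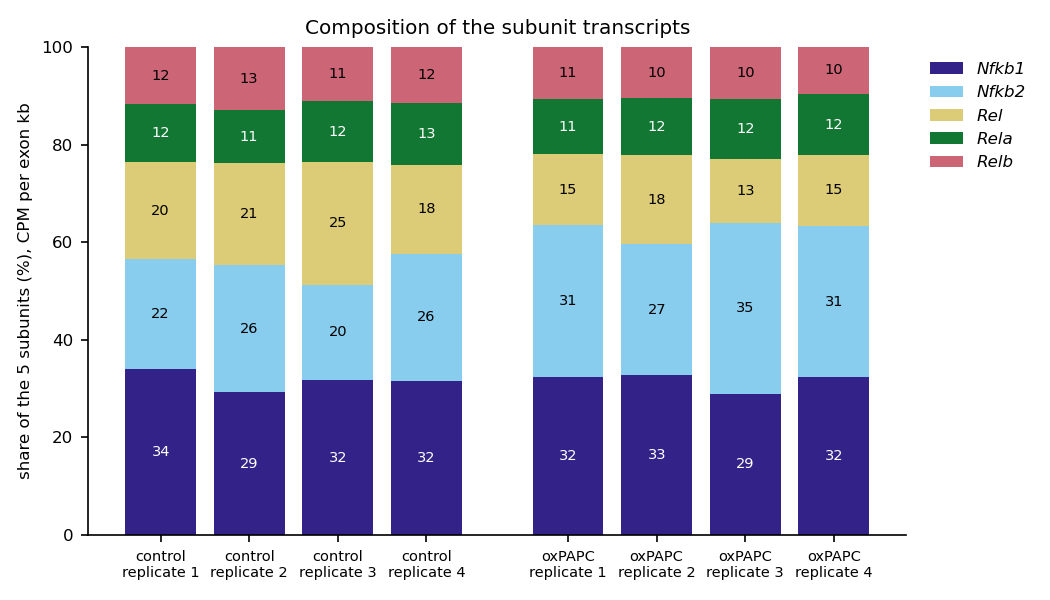
Share of each NF-kB subunit (vertical axis, percent) in the summed CPM per exon kb of the 5 subunits, 1 stacked bar per library. The Nfkb2 segment is 19.6% to 26% in control bars and 26.8% to 35.1% in oxPAPC bars, and the Rel segment is 18.3% to 25.1% and 13.1% to 18.3%.

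The genes varied together between replicates of 1 group. After each library's value was set against its group mean, control replicates 2 and 4 and oxPAPC replicate 3 were above the mean for 9 of the 10 genes each, control replicate 1 for 0 and control replicate 3 for 1. Over the 45 pairs of genes, Pearson's r of these deviations (8 libraries) had a median of 0.63 and exceeded 0.8 in 18 pairs, the highest being 0.983 for Nfkb2 with Nfkbib. Tnfaip3 and Rel stood outside this pattern, with r from -0.474 to 0.571 for Tnfaip3 and from 0.26 to 0.568 for Rel. All pairs share the same 8 libraries and their depth and base composition.

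Base composition went with part of this pattern. The longest transcripts of Nfkb2 and Rela are 59.4% G and C, and those of Nfkbib, Nfkbid, Relb and Nfkbie 58.8%, 57.1%, 56.8% and 55.4%, against a median of 49.3% over tested genes. Nfkbia has 52.9%. Rel with 42.5%, Nfkb1 with 44.9% and Tnfaip3 with 47.1% lie below that median. Nfkb1, although GC-poor, varied with the GC-rich genes, with r of 0.956 for Nfkb2, 0.943 for Rela and 0.932 for Nfkbib. Over 16410 genes, the deviation of a library from its group mean correlated with GC content (r across genes, which are not independent) at 0.344, 0.429 and 0.321 in control replicates 2 and 4 and oxPAPC replicate 3, and at -0.147 and -0.52 in control replicates 1 and 3. The other 3 oxPAPC libraries had r of -0.198 to -0.0612. Mitochondrial transcripts made up 5.68% and 5.88% of the counts in control replicates 1 and 3, 1.72% to 2.98% in control replicates 2 and 4 and oxPAPC replicate 3, and 3.59% to 4.33% in the other oxPAPC libraries. The noncoding RNA Rn7sk took 2.73% to 3.38% of control and 1.91% to 3.63% of oxPAPC counts. The part of the mitochondrial and Rn7sk shares in the results was not tested. The noncoding RNA Gm26917 took 8.59% to 29.1% of control and 9.35% to 19.4% of oxPAPC counts, and with its share as a covariate Nfkbib (0.82, edgeR adjusted p = 0.0272) and Nfkbie (0.74, adjusted p = 0.017) kept their calls.

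**Figure D4:**
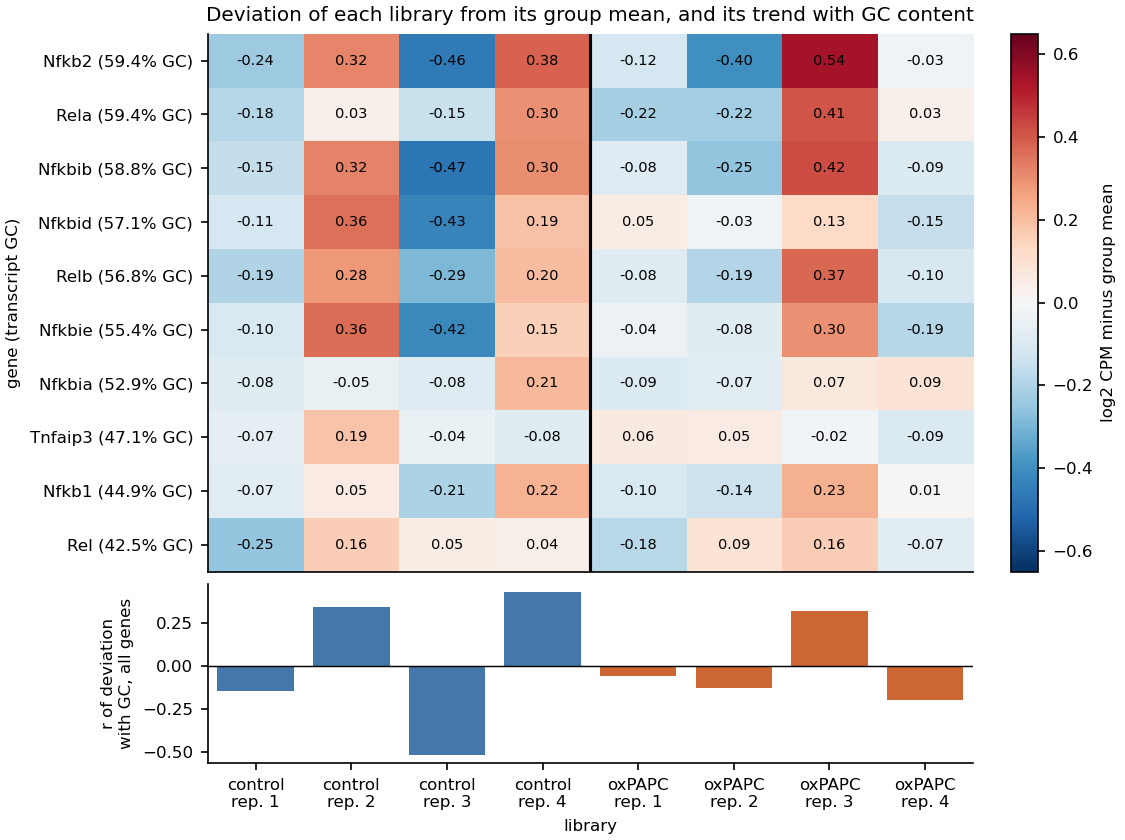
Upper panel, log2 CPM of each gene minus its group mean in each library (color and number), with genes ordered by the GC content of the longest transcript. Lower panel, correlation across 16410 genes of each library's deviation with GC content. In the libraries with positive bars (control replicates 2 and 4, oxPAPC replicate 3) all genes of the upper rows down to Nfkbie lie above their group mean. In the other libraries they lie below it, except Nfkbid in oxPAPC replicate 1 (0.05) and Rela in oxPAPC replicate 4 (0.03).

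A correction for transcript GC and length (an offset fitted per library, added after the data were seen) narrowed the spread of the GC-rich members. The within-group SD went from 0.405 to 0.237 for Nfkb2, from 0.341 to 0.165 for Nfkbib, from 0.281 to 0.155 for Nfkbie and from 0.26 to 0.13 for Nfkbid (log2 scale), and from 0.165 to 0.195 for Rel and from 0.174 to 0.211 for Nfkb1. With the offset 4 of the 10 genes were higher by edgeR and 0 lower, namely Nfkbib (0.76 ± 0.12, SE, adjusted p = 0.000887), Nfkbie (0.64 ± 0.12, adjusted p = 0.0025), Nfkb2 (0.79 ± 0.16, adjusted p = 0.00299) and Nfkbid (0.48 ± 0.11, adjusted p = 0.00883). The offset also raised the number of genes called over the whole table from 2182 to 3282, or from 1110 to 1735 in the upward direction. Rel had -0.18 ± 0.14 (SE, adjusted p = 0.419). The log2 ratio of Nfkb2 to Rel was then -0.72 to -0.48 in control and -0.06 to 0.55 in oxPAPC libraries. The number of pairs with r above 0.8 was 7 with the offset, against 18 without it.

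The genes around these members in the pathway were taken from lists chosen with earlier results of these data known. Of 44 tested genes that act upstream of or beside the members, 1 was higher, 1 lower and 42 did not pass by edgeR, with a median log2 fold change of -0.02, where 13.3% of all tested genes were called. The lower gene was Malt1, a protease and scaffold that links the antigen receptor to IKK. It had 187.3, 239, 208.5 and 166.7 CPM in control and 146.7, 127.2, 113.8 and 109.1 CPM in oxPAPC libraries, so all oxPAPC libraries lay below all controls. It fell by 0.69 ± 0.16 (SE) on the log2 scale (edgeR adjusted p = 0.0122), and the call was lost only with library size scaling (-0.56, adjusted p = 0.0663) among the 18 alternatives run. Its partner Bcl10, named after its values were seen, did not pass (-0.12, edgeR adjusted p = 0.594, and 0.03 with library size scaling). The higher gene was Tnip2, which binds A20, from 21.4 to 28.2 CPM (0.40 ± 0.12, SE, edgeR adjusted p = 0.0491). This call held in 5 of the 18 alternatives. It was lost with each single library left out (log2 fold changes of 0.36 to 0.46, adjusted p of 0.0556 to 0.136), with library size scaling, without a filter, with limma-voom and with the Gm26917 covariate. The replicate number as a block also ended it (0.40, edgeR adjusted p = 0.108).

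None of the 5 genes for IKK subunits and related kinases passed. The kinase genes Chuk and Ikbkb had log2 fold changes of 0.11 and 0.13 and the scaffold gene Ikbkg -0.04, which turned to 0.11 with library size scaling (edgeR adjusted p of 0.55 to 0.895 for the 3 genes). Map3k14, the kinase that starts the alternative pathway, had 0.16 (adjusted p = 0.499), and the other 4 genes of the alternative arm did not pass either. Of the 3 genes of the linear ubiquitin chain complex and of the 5 tested genes for ubiquitination of IkB none passed. Among the 13 feedback and deubiquitination genes 1 rose, which was Tnip2. The other IkB family genes Bcl3 (-0.12 ± 0.20, SE, edgeR adjusted p = 0.761, and 0.04 with library size scaling) and Nfkbiz (0.16 ± 0.16, adjusted p = 0.574) did not pass.

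Genes that NF-kB is known to activate, mostly cytokines, surface receptors and survival factors, were higher in large part. Of 28 target genes listed, 25 were in the deposited table and 24 were tested. Over all tested genes 6.75% were called higher. Of the 24 targets 14 rose, 0 fell and 10 did not pass by edgeR, with a median log2 fold change of 0.67. Many of these genes also answer to other factors, and the list was chosen with results of these data known, so its direction is not independent evidence. The targets named next are those with the smallest adjusted p and do not stand for the 10 that did not pass. Gadd45b, a stress-induced survival gene, had 13.8, 13.8, 10.4 and 10.2 CPM in control and 40.5, 39.3, 39.9 and 37.5 CPM in oxPAPC libraries. It rose by 1.71 ± 0.15 (SE) on the log2 scale (edgeR adjusted p = 1.12e-05), and the groups were far apart. Ccl22, a chemokine that attracts Tregs, had 3.56 to 6.64 CPM in control and 20.2 to 37.7 CPM in oxPAPC libraries. Ccl4, another chemokine, and Csf2, a growth factor for myeloid cells, were under 1 CPM on average in control libraries and had 8.39 and 7.86 CPM with oxPAPC. The filter on low counts can be passed through the oxPAPC libraries alone, which favours rises among genes so low in control. Gadd45b, Ccl22, Ccl4 and Csf2 kept their call under every alternative that tested them.

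**Figure D5:**
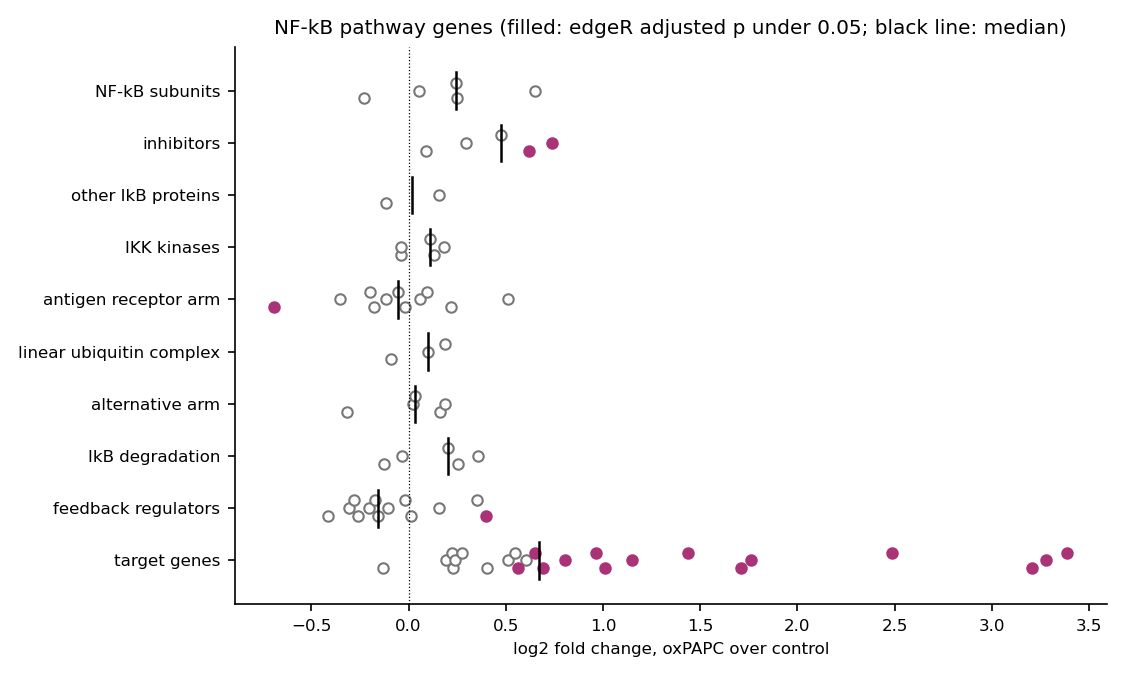
Log2 fold change, oxPAPC over control (horizontal axis), of each tested gene, grouped by role in the NF-kB pathway; filled points have an edgeR adjusted p under 0.05 and black lines are medians. Filled points are 14 of 24 among target genes, 2 of 5 among inhibitors, and 1 each (Malt1, Tnip2) among the antigen receptor arm and the feedback regulators.

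Of 9345 protein-coding genes with a mean of at least 5 CPM, those whose log2 CPM followed Nfkbib most closely over the 8 libraries were Taf6l (Pearson's r = 0.997), Creld2 (0.995) and Tap1 (0.993). For Nfkbie they were Tmem41a (0.987), Socs1 (0.986) and Pdgfb (0.984). The 8 libraries share their depth and base composition with every gene, and the group difference enters both sides. Of these 6 genes Creld2, Socs1 and Pdgfb passed the test between groups by edgeR (log2 fold changes of 0.80, 0.66 and 0.59, adjusted p of 0.0165, 0.0346 and 0.0461). The 3 others, Taf6l, Tap1 and Tmem41a, had 0.50, 0.54 and 0.42 (adjusted p of 0.0585, 0.0652 and 0.187).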

How the data were processed

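RNA-seq counts of 4 control and 4 oxPAPC libraries were analysed. GRCm38.p6, featureCounts 2.0.2, STAR 2.7.8a and DESeq2 1.30.1 appear in the submitters' processing notes. RNA was column-purified and poly(A)-selected, per the labels' protocols. The authors deposited raw counts per gene with their DESeq2 comparison (signal as mean normalized counts, log2 fold changes, linear fold ratio, a score (the Wald statistic) and p-values), per the file headers. No gene of the table has fewer than 2 libraries with 5 or more counts. Genes below that were not analysed here.

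Groups followed the labels. Counts were scaled by TMM, filtered with filterByExpr and compared with edgeR 4.0.16 (quasi-likelihood, R 4.3.3, no block), with Benjamini-Hochberg adjustment over 16434 genes at a threshold of 0.05. SE is the log2 fold change over the square root of F. The procedure was tested on simulated data. These were drawn for each gene independently, without a GC trend or variation shared between genes, so they cannot show how either affects the calls. The common biological coefficient of variation was 0.207. Exon lengths and transcript GC came from GENCODE M21, whose coordinates are identical for all 10 genes. Log2 CPM used a prior count of 2. Settings tried were DESeq2 1.42.0, limma-voom (limma 3.58.1) without and with quality weights, RLE and library size scaling, no filter, a stricter filter (mean of 5 CPM), the replicate block, the Gm26917 share as covariate, leaving out each library and, added after the data were seen, the GC and length offset (loess span 0.5).

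The members and lists were chosen with earlier results of these data known. Genes were named by a rule: all 10 members, up to 4 genes per pathway list past the threshold with the smallest adjusted p, 6 preset pathway genes, and for each called member the 3 genes with the highest correlation. Values of some single genes are not reported here.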

Additional observations from a re-analysis of the deposited data

Results flagged for a closer look

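For 8 of 60 sets of 4 replicate values, 1 library stood well apart from the other 3. About 3 such sets (1 in 20) arise by chance. In 4 of the 8 the library was oxPAPC replicate 3. Tap1, 1 of these 4, was chosen because its levels followed those of Nfkbib over the same libraries. Its value is thus not independent of Nfkbib, which also stood highest in oxPAPC replicate 3. In that library Relb had 80.6 CPM against 54.5 to 58.7 in the others, Bcl3 had 98.2 against 64.3 to 64.4, Ikbkg had 42.5 against 32 to 33.1, and Tap1 had 342 against 241 to 248. Control replicate 4 held 318 CPM of Nfkbia, where the other controls held 260 to 266. Control replicate 2 held 143 CPM of Tnfaip3 (others 118 to 122) and 19.8 CPM of Tnip2 (others 21.8 to 22). For Tnip2, oxPAPC replicate 1 held 24.9 CPM (others 29.1 to 29.6).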

How the results depend on the processing

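The count of 2 higher members became 4 with library size scaling and 4 with the GC and length offset, and ranged from 0 to 3 with 1 library left out, the 0 being without control replicate 1 and without oxPAPC replicate 3. No member was called lower under any of the 18 alternatives. Nfkbib passed in 15 and Nfkbie in 12 of the 18. No pairing was taken from the replicate numbers, because the labels do not say that same-numbered libraries share an animal or day. The count columns are numbered with control and oxPAPC in turn. The deviations of same-numbered libraries correlated at 0.32, -0.053, -0.37 and -0.035, and the best match carried the same number for 2 of 8 libraries. These correlations cannot settle whether the libraries were paired, because the deviations also follow GC content. With the replicate block 0 members passed and 1453 genes were called, 708 of them lower, while the log2 fold changes of Nfkbib (0.747, adjusted p = 0.0849 by edgeR) and Nfkbie (0.634, adjusted p = 0.0898) were near those without it. Over all genes, library size scaling called 458 lower and the offset called 3282, with 1735 higher. The fits with 1 library left out, which have fewer samples, called 1390 to 2134 genes (higher, 710 to 1057; lower, 680 to 1144). The 1 lower pathway gene became 0 with library size scaling and 2 with the offset. Directions of genes that did not pass turned as follows. Relb had -0.0511 with quality weights and -0.087 to 0.154 with 1 library left out. Bcl3 had 0.0432, Ikbkg 0.107 and Bcl10 0.0282 with library size scaling, which shifted the median of all genes to 0.12. Ikbkg had 0.00322 with the offset. With 1 library left out Bcl3 ranged from -0.297 to 0.013 and Ikbkg from -0.145 to 0.02. Apart from the fits with fewer samples, the cause was not tested.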
